A study of Mus musculus with 8 samples.

Results

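ADAMTS proteases are secreted zinc metalloproteinases of the extracellular matrix, and 5 of their genes, Adamts1, Adamts2, Adamts5, Adamts10 and Adamts15, were followed in fibro/adipogenic progenitors (FAPs), resident muscle fibroblasts that carry the receptor PDGFRα. The genes were taken by symbol from 31053 in the feature table, and all 5 were found. They were measured in 1435 of 1724 dysferlin knockout barcodes and 1533 of 2073 wild type barcodes, those with at least 500 genes, at most 10% mitochondrial UMIs (unique molecular identifiers, 1 per captured transcript) and at least 1 Pdgfra UMI. The knockout group consisted of female mice aged 8 months, whose strain is given as BLA/J in the sample labels and B6A/J in the protocol, and the wild type group of C57BL/6 females of the same age. Dysferlin is a muscle membrane repair protein, and its loss in this strain is not limited to FAPs. Hindlimb and psoas muscles were digested enzymatically, live PDGFRα-positive cells were sorted, and libraries were made with the 10x Genomics 3′ kit. Each group lists 4 samples but was deposited as 1 pooled matrix with no map from cells to samples, so each group is 1 library, no test between groups exists, and genotype, strain background and library preparation cannot be told apart.

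ADAMTS enzymes share a catalytic domain with a zinc-binding histidine motif, a disintegrin-like domain and thrombospondin repeats that hold them in the matrix. They divide the work by substrate. ADAMTS2 removes the amino-terminal propeptide from fibrillar procollagens I, II and III, a step that collagen needs to pack into fibrils. ADAMTS1, ADAMTS5 and ADAMTS15 belong to the group that cleaves the large hyaluronan-binding proteoglycans, mainly aggrecan in cartilage and versican in soft tissue, and versican cleavage by ADAMTS5 and ADAMTS15 has been tied to myoblast fusion in mouse cells. ADAMTS10 is a poor protease that binds fibrillin microfibrils, and its loss in people causes Weill-Marchesani syndrome.

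The cells used held 19170199 UMIs in the knockout library and 14420247 UMIs in the wild type library, with medians of 12717 and 9177 UMIs per cell. Each of the 10 FAP markers checked was found in at least 93.7% of the cells of either library, one of them, Pdgfra, by the choice of cells. Immune markers summed to 104.6 counts per 1000000 UMIs (CPM) in the knockout cells and 3.12 CPM in the wild type cells, with Cd3e at 0 in both libraries and Ptprc and Nkg7 at 0 in the wild type. Of all barcodes, 13 occurred in both matrices, 2 of them among the cells used. Dysf itself had 14 UMIs in the knockout cells and 9 in the wild type cells, and since a 3′ tag says nothing of the rest of the message, the gene gives no check of the labels. All intervals below are exact 95% intervals that cover counting error only, not the spread between animals.

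Adamts5 was the most abundant member and Adamts15 the least, in both libraries. A level is the sum of a gene's UMIs over the cells of a library, in CPM. The 3′ kit tags each transcript once, so levels were not divided by transcript length. Adamts5 (ENSMUSG00000022894) had 12338 UMIs in the knockout library, or 644 CPM (632 to 655), and 8527 UMIs in the wild type library, or 591 CPM (579 to 604). Adamts2 (ENSMUSG00000036545) had 5964 UMIs and 311 CPM (303 to 319) in the knockout library, against 3152 UMIs and 219 CPM (211 to 226) in the wild type library. Adamts1 (ENSMUSG00000022893) had 2710 UMIs and 141 CPM (136 to 147) in the knockout library, against 1928 UMIs and 134 CPM (128 to 140) in the wild type library. These 3 genes kept wide gaps between them in each library. Adamts10 (ENSMUSG00000024299) had 717 UMIs and 37.4 CPM (34.7 to 40.2) in the knockout library, against 512 UMIs and 35.5 CPM (32.5 to 38.7) in the wild type library. Adamts15 (ENSMUSG00000033453) had 688 UMIs and 35.9 CPM (33.3 to 38.7) in the knockout library, against 218 UMIs and 15.1 CPM (13.2 to 17.3) in the wild type library. Adamts10 and Adamts15 therefore overlapped in the knockout library and were apart in the wild type library, while all other neighbours in the order were apart in both. Together the 5 genes held 86.8% of the UMIs of all 19 ADAMTS protease genes in the knockout library and 89.6% in the wild type library.

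**Figure D1:**
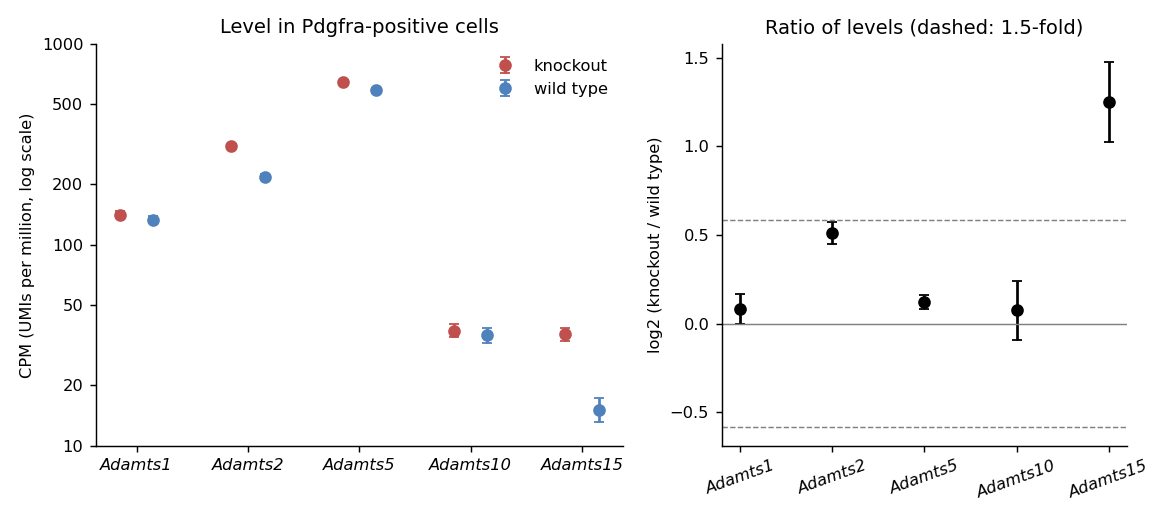
The left plot gives each gene's level in CPM on a log axis for the knockout and wild type libraries, with exact Poisson 95% intervals. The right plot gives the log2 knockout over wild type ratio with its exact 95% interval. Adamts15 alone, at 1.25, lies beyond the dashed 1.5-fold line, and Adamts2, at 0.51, lies just under it.

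Adamts15 was the member that differed most between the libraries, Adamts2 differed moderately, and the other 3 were close. Adamts15 was 2.37-fold higher in the knockout cells, with a log2 ratio of 1.25 (1.03 to 1.47). Adamts2 was 1.42-fold higher (0.51, 0.45 to 0.57). Both intervals lie wholly above 0, but that of Adamts2 does not reach 1.5-fold. Adamts5 was 1.09-fold higher (0.12, 0.08 to 0.16). Adamts1 had a log2 ratio of 0.08 (-0.00 to 0.17) and Adamts10 one of 0.08 (-0.09 to 0.24), and both intervals include 0. Of all 5933 genes with a mean of at least 20 CPM over both libraries, 5.07% were higher in the knockout cells by 1.5-fold or more, 3.59% lower and 8.66% either, and the median log2 ratio was 0.05. At 2-fold, 1.77% were higher, 1.01% lower and 2.78% either. All 5 members passed the 20 CPM filter, with Adamts15 alone past 1.5-fold, none lower by that much, and a median log2 ratio of 0.12. Adamts15 passed it only through its knockout level, so its place among the higher genes is a description of its size and the count of 1 in 5 carries no weight. As large a ratio as that of Adamts15 was found in 1.05% of the genes, and as large a ratio as that of Adamts2 in 6.61%. Without the 108 knockout and 59 wild type cells that hold at least 2 markers of another cell type, the log2 ratios were 1.28 for Adamts15, 0.52 for Adamts2, 0.17 for Adamts5, 0.14 (0.05 to 0.23) for Adamts1 and 0.07 for Adamts10, so that the interval of Adamts1 then lay above 0.

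Most cells held Adamts5 and Adamts2 UMIs, and fewer held those of the other members. Adamts5 was seen in 88.9% of the knockout cells (1275 of 1435; 87.1 to 90.4) and 81.5% of the wild type cells (1250 of 1533; 79.5 to 83.5). The highest cell had 119 Adamts5 UMIs in the knockout library and 68 in the wild type library. Adamts1 was seen in 56.8% of the knockout cells (54.2 to 59.4) and 48.3% of the wild type cells (45.8 to 50.9), with up to 53 UMIs in a knockout cell and 25 in a wild type cell. Adamts2 was seen in 86.6% of the knockout cells (84.7 to 88.3) and 69.8% of the wild type cells (67.4 to 72.1). Adamts10 was seen in 34.9% of the knockout cells and 25.9% of the wild type cells, and Adamts15 in 27.7% and 10.1%. No cell had more than 6 Adamts10 UMIs. These shares also carry the greater depth of the knockout library.

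**Figure D2:**
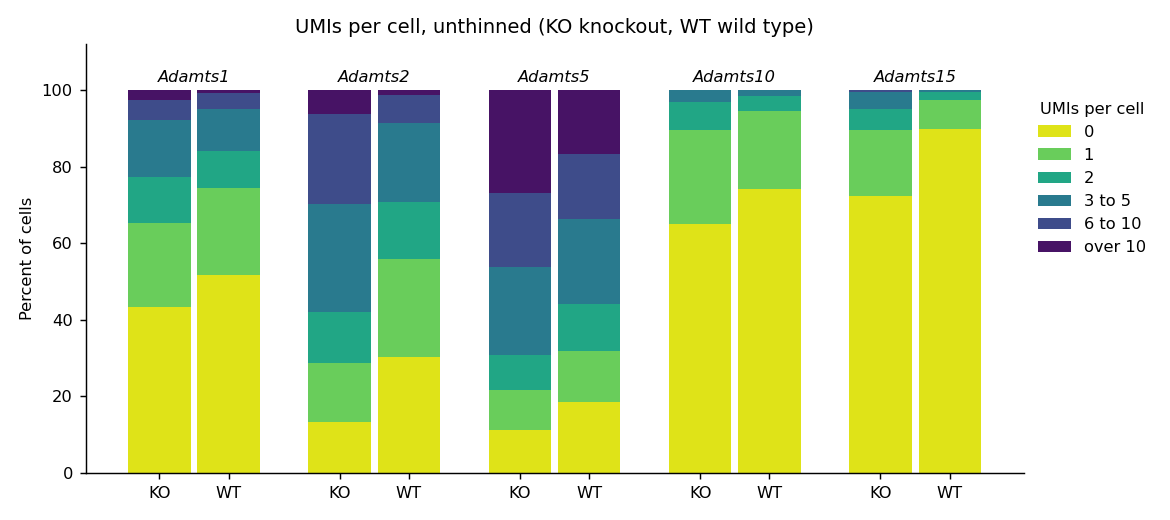
Each bar divides the cells of a library by the number of UMIs they hold of a gene, in percent of 1435 knockout (KO) or 1533 wild type (WT) cells, without correction for depth. More than 10 Adamts5 UMIs were found in 26.8% of the knockout and 16.6% of the wild type cells, against no cell of either library for Adamts10.

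With every cell thinned at random to 5000 UMIs, which left out 172 knockout and 299 wild type cells that were shallower, only Adamts2 and Adamts15 had shares that differed between the libraries beyond counting error. Adamts2 was seen in 72.4% of 1263 thinned knockout cells (69.9 to 74.9) and 57.9% of 1234 thinned wild type cells (55.0 to 60.6). Adamts15 was seen in 14.0% of the knockout cells (12.1 to 16.1) and 6.16% of the wild type cells (4.88 to 7.65). The intervals of the other 3 overlapped, with Adamts5 at 78.2% of the knockout and 76.8% of the wild type cells, Adamts1 at 37.0% and 38.0%, and Adamts10 at 16.8% and 14.9%. If UMIs fell on cells by counting error alone, the mean Adamts1 level would give 50.9% of the knockout cells and 51.0% of the wild type cells a UMI, well above the shares seen. For Adamts5 the same calculation gives 96.2% and 94.6%. To compare spread between genes of unequal abundance, the variance of thinned UMIs beyond their mean was divided by the mean squared, which counting error alone puts near 0. It was 3.37 in the knockout and 1.80 in the wild type library for Adamts1, and 1.98 and 2.43 for Adamts15. For Adamts5 it was 0.985 in the knockout and 0.839 in the wild type library, for Adamts10 0.574 and 0.676, and for Adamts2 0.223 and 0.463. By this measure Adamts1 and Adamts15 varied most between cells for their level and Adamts2 least, in both libraries, though the values of Adamts10 and Adamts15 rest on few UMIs per cell. As a check on free RNA, 14 immune cells with no Pdgfra UMI (median 11141 UMIs) held 1 Adamts5 UMI and none of the other 4 genes. For 0 of 14 cells the exact upper limit of the share is 23.2%. The abundant FAP gene Dcn was found in 10 of the same 14 cells, with 24 UMIs. RNA of that gene was therefore present in them, and so few cells could miss a background of the scarcer members.

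No pair of members had more than a weak correlation from cell to cell. Over the thinned cells of each library, the 10 pairs of members gave Pearson correlations of log counts between -0.01 and 0.14 in the knockout library and between -0.05 and 0.13 in the wild type library. Cells of 1 library share its preparation, and in counts this sparse such values are too weak to read. The highest was that of Adamts5 and Adamts15 in the knockout library, at 0.14, against 0.03 in the wild type library. Adamts2 and Adamts5 had 0.11 in the knockout and 0.13 in the wild type library. Adamts1 and Adamts5 are neighbours on chromosome 16, separated by 53059 bases with no protein-coding gene between them, and gave 0.01 in the knockout and 0.02 in the wild type library. Cells with UMIs of both numbered 369 in the knockout library, where independence gives 365, and 368 in the wild type library, where it gives 360. All 5 members were found together in 0.633% of the thinned knockout cells and 0.243% of the thinned wild type cells (8 and 3 cells), where independence gives 0.493% and 0.155%. Without thinning, which leaves the greater depth of the knockout library in place, the shares were 7.04% of the knockout and 1.70% of the wild type cells.

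The procollagen protease gene Adamts2 (chromosome 11, 50602084 to 50807573 on mm10, plus strand) followed the genes of its own substrates. The 3 genes most correlated with it, of 5272 compared over 1263 knockout and 1234 wild type thinned cells, were Col3a1, Col1a2 and Col1a1, the chains of collagens III and I. Col3a1 had a Pearson r of 0.34 in the knockout and 0.28 in the wild type library. Col1a2 had 0.27 and 0.25, and Col1a1 0.26 and 0.25. When the cells of both libraries were pooled and divided into quintiles by the sum of these 3 collagens, Adamts2 climbed with them in each library. As the 3 collagens were picked by their correlation with Adamts2 in the same cells, a climb follows from that choice. It gives the size of the rise and is no separate support. In the knockout library it had 98.3, 170, 251, 314 and 382 CPM from the lowest to the highest quintile. In the wild type library it had 128, 190, 243, 346 and 380 CPM.

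Within the collagen quintiles the higher Adamts2 of the knockout library was not seen. The log2 knockout over wild type ratio from the lowest to the highest quintile was -0.38 (-0.76 to -0.01), -0.16 (-0.37 to 0.04), 0.05 (-0.09 to 0.20), -0.14 (-0.27 to -0.00) and 0.01 (-0.13 to 0.15), against 0.51 over all cells. The libraries filled the quintiles differently. The highest quintile held 35.8% of the knockout cells (514) and 5.22% of the wild type cells (80), and the lowest 4.74% of the knockout cells (68) and 34.3% of the wild type cells (526). This division was chosen after the correlation was known. The collagens themselves were higher in the knockout library, Col3a1 by 1.33 on the log2 scale and Col1a1 and Col1a2 by 0.98 each.

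**Figure D3:**
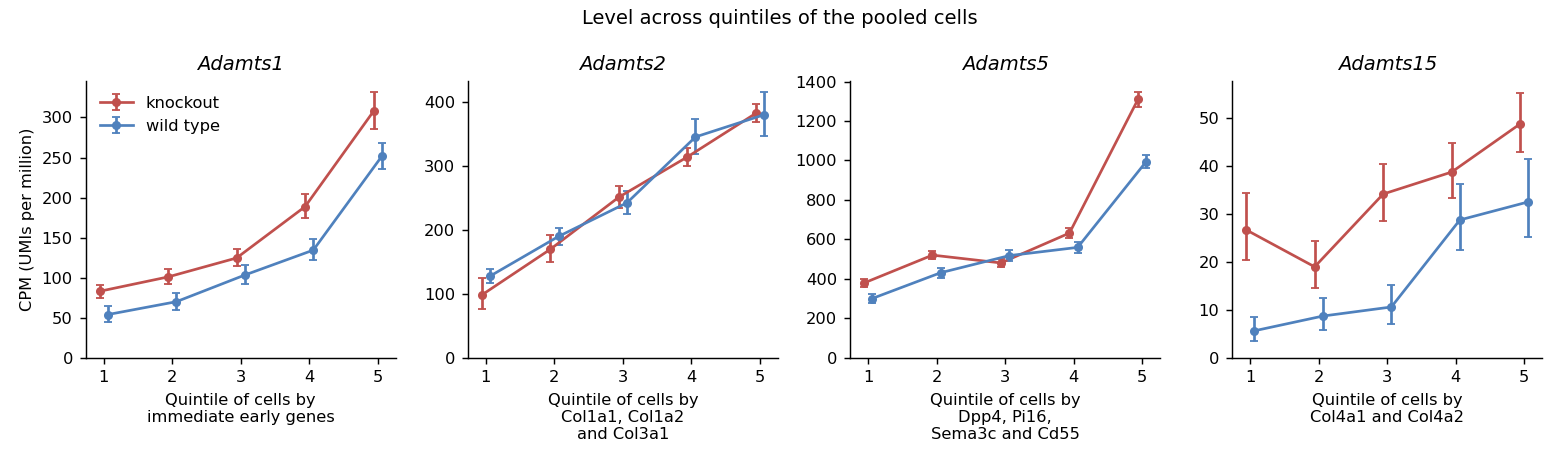
Levels in CPM of Adamts1, Adamts2, Adamts5 and Adamts15 in quintiles of the pooled cells, ordered from low to high by the gene sums named under each plot, for the knockout and wild type libraries with exact Poisson 95% intervals. The intervals of the libraries overlap for Adamts2 in all 5 quintiles, although its ratio intervals lie below 0 in quintiles 1 and 4. Adamts1 is higher in the knockout library in all 5, and its level intervals overlap only in quintile 3.

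Adamts1 (chromosome 16, 85793827 to 85803113, minus strand), a versican-cleaving protease known from ovulation in mice, followed the immediate early genes. These are transcription factor and feedback genes induced within minutes by growth factors or stress, including tissue digestion. Its 3 most correlated genes were Zfp36, an mRNA decay factor (r of 0.23 in the knockout and 0.28 in the wild type library), the zinc-finger factor Egr1 (0.25 and 0.24) and the AP-1 subunit Fos (0.24 and 0.26). In the 20% of pooled cells with the highest sum of 8 immediate early genes, Adamts1 had 308 CPM in the knockout library, against 118 CPM in its other cells. In the wild type library the same cells had 252 CPM, against 94.2 CPM in the others. The log2 difference between such cells and the rest was 1.38 in the knockout library (1.26 to 1.50) and 1.42 in the wild type library (1.29 to 1.55). The sum includes Egr1 and Fos, named above for their correlation with Adamts1 in these same cells. The rise therefore repeats part of that correlation and is no separate support.

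Within cells grouped by immediate early expression Adamts1 was higher in the knockout library, although the totals hardly differed. The log2 knockout over wild type ratio was 0.29 (0.15 to 0.43) inside the top 20% and 0.33 (0.22 to 0.44) outside it, against 0.08 over all cells. In the 5 quintiles by the same sum it was 0.62, 0.53, 0.27, 0.49 and 0.29 from low to high, each with an interval above 0. The top 20% took in 13.1% of the knockout cells (188) and 26.5% of the wild type cells (406). These cells gave 26.6% of the Adamts1 UMIs of the knockout library and 47.3% of those of the wild type library. Whether the digestion of the muscle set the immediate early level of either library was not tested.

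The sequence before the start of Adamts1 is shown because the gene followed rapidly induced genes, and that of Adamts2 for comparison, both from RefSeq on GRCm38.p6 (mm10), read 5′ to 3′ on the strand of the gene. Of the 5 members these 2 were matched. Capitals mark TATAAA, the GC box GGGCGG and the cyclic AMP response half-site TGACG, each searched on both strands over the 250 bases before the start.
Adamts1, chr16:85803114-85803363, minus strand: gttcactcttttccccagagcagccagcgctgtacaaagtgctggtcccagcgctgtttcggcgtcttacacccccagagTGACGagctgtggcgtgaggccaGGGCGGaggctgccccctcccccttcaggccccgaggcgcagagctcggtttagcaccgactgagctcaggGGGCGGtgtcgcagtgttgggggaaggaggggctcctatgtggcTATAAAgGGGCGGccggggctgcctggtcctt
Adamts2, chr11:50601835-50602084, plus strand: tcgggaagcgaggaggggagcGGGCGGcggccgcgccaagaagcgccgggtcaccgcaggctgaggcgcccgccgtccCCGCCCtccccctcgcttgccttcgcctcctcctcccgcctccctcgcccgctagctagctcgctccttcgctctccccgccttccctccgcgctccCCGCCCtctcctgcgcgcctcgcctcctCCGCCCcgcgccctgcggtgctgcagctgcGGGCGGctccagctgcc
Adamts1 has 1 TATAAA, whose first base lies 32 bases before the start, 1 TGACG and 3 GC boxes. Adamts2 has 5 GC boxes and neither other motif. Of 32851 such windows in the table, 12.4% hold TATAAA, 17.8% TGACG and 32.7% the GC box. The full cyclic AMP response element TGACGTCA (1.55% of windows), the AP-1 pattern TGANTCA (6.75%), the EGR1 core GCGTGGGCG (0.536%) and the glucocorticoid receptor half-site TGTTCT (16.1%) are in neither window. TGACG is contained in TGACGTCA, and no other pair of these motifs overlaps in these windows. A match is a match of letters and not a measured site.

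Adamts5 (chromosome 16, 85856173 to 85901828, minus strand), the main aggrecan-cleaving protease of mouse cartilage, was concentrated in cells of the Dpp4 and Pi16 type, the FAP state held to be progenitor-like. In the 20% of pooled cells with the highest sum of Dpp4, Pi16, Sema3c and Cd55 it had 1309 CPM in the knockout library, against 507 CPM in the other knockout cells. In the wild type library it had 994 CPM in such cells, against 459 CPM in the others. The log2 differences were 1.37 in the knockout and 1.11 in the wild type library. In the knockout library the 247 cells of this kind, 17.2% of its cells, gave 34.6% of its Adamts5 UMIs, and in the wild type library the 347 cells, 22.6%, gave 41.5%. Inside this set the log2 knockout over wild type ratio was 0.40 (0.33 to 0.46), and outside it 0.14 (0.09 to 0.19). By quintiles of the same sum Adamts5 had 379, 520, 481, 632 and 1309 CPM in the knockout library and 300.4, 431, 518, 559 and 994 CPM in the wild type library, so most of the step lay in the highest quintile.

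The genes most like Adamts5 from cell to cell were Nid1, Pcsk6 and Fndc1. Nid1, which encodes the basement membrane linker nidogen and is listed among reported ADAMTS substrates, had an r of 0.40 in the knockout and 0.36 in the wild type library. Pcsk6 encodes a proprotein convertase of the kind that activates ADAMTS zymogens and had 0.31 and 0.40. Fndc1, a fibronectin type III domain gene, had 0.31 and 0.38. The lowest values were those of the protease inhibitor gene Cst3, at -0.31 in the knockout and -0.37 in the wild type library, and of the matrix calcification inhibitor Mgp, at -0.34 and -0.31. Next came Bgn, a small proteoglycan gene on the same substrate list as Nid1, at -0.36 in the knockout and -0.24 in the wild type library. Of the 11 cell sets compared, Adamts5 was lowest in cells with high Comp and Clu, at 347 CPM in the knockout and 308 CPM in the wild type library. In those with high Gdf10 and Fmo2 it had 365 CPM in the knockout and 394 CPM in the wild type library. Cells with high Fst, Apoe, Penk and Cyp26b1 differed between the libraries, with 528 CPM in the knockout and 328 CPM in the wild type library, a log2 ratio of 0.69 (0.56 to 0.81).

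Adamts15 (chromosome 9, 30899155 to 30922452, minus strand), a versican- and aggrecan-cleaving protease, was higher in the knockout library in almost every kind of cell compared. Its log2 ratio of knockout over wild type was above 0 inside all 11 cell sets, with a range of 0.03 to 2.30 and a median of 1.21, and was at least 1.5-fold in 9 of them. Outside the sets it ran from 0.97 to 1.44. The sets overlap and share cells, so they are not 11 separate observations. The lowest value was in cells with high Stmn4 and Inmt, with 14.2 CPM from 11 UMIs in the knockout library and 13.9 CPM from 60 UMIs in the wild type library, and its interval of -1.04 to 0.97 is wide. The highest was in the Dpp4 and Pi16 set, with 52.5 CPM from 171 UMIs in the knockout and 10.7 CPM from 38 UMIs in the wild type library (1.78 to 2.84 in the interval).

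Where Adamts15 was found among the cells differed between the libraries. In the knockout library it was higher in the Dpp4 and Pi16 set than outside it, with a log2 difference of 0.69 (0.43 to 0.94), and in the wild type library lower, with one of -0.63 (-1.18 to -0.12). In cells with high Hsd11b1, Mme, Nmb and Cxcl14 it had 36.4 CPM in the knockout library, against 35.7 CPM outside, and 25.5 CPM in the wild type library, against 13.2 CPM outside. With 1 library a group this difference of pattern was not tested. In both libraries Adamts15 was lower in cells with high Comp and Clu. These had 18.9 CPM from 63 UMIs in the knockout library, against 39.5 CPM in its other cells. The wild type library had 4.40 CPM from only 13 UMIs there, against 17.9 CPM, a log2 difference of -2.02 (-2.95 to -1.21) for Adamts15. The genes most correlated with it were the collagen genes Col5a3 (r of 0.13 in the knockout and 0.18 in the wild type library), Col4a2 (0.12 and 0.17) and Col4a1 (0.12 and 0.15), values too weak to read more from. By quintiles of the sum of Col4a1 and Col4a2, chains of the basement membrane collagen, Adamts15 had 26.7, 19.0, 34.2, 38.8 and 48.8 CPM in the knockout library from low to high. The wild type library had 5.63, 8.71, 10.6, 28.8 and 32.5 CPM. The log2 knockout over wild type ratio was 2.24 (1.51 to 3.04) in the lowest quintile and 0.59 (0.19 to 1.00) in the highest. Col4a1 and Col4a2 were picked by their correlation with Adamts15 in these same cells. The rise over the quintiles therefore repeats that choice and is no separate support.

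Adamts10 (chromosome 17, 33524204 to 33553782, plus strand), the microfibril-binding member, was set apart in both libraries only in cells with high Cxcl9, Cxcl10, Ccl2 and Ccl7. It was lower there than outside, by a log2 difference of -0.23 (-0.46 to -0.01) in the knockout library. In the wild type library the difference was -0.47 (-0.96 to -0.00), so both intervals end close to no difference. The Adamts10 values rest on few UMIs, down to 18 in the wild type cells of the Cpxm1 set. In the knockout library it was higher in cells with high Gdf10 and Fmo2 than outside, by 0.47 (0.15 to 0.78) on the log2 scale. The wild type library gave 0.26 (-0.03 to 0.55) there. Inside the 11 cell sets its level ran from 31.5 to 49.9 CPM in the knockout library and from 26.5 to 42.4 CPM in the wild type library. The log2 knockout over wild type ratio ran from -0.27 to 0.54, and in no set reached 1.5-fold. Its most correlated genes were the matrix glycoprotein gene Sparcl1 (r of 0.12 in the knockout and 0.15 in the wild type library), the basement membrane collagen Col15a1 (0.08 and 0.12) and Mgp (0.04 and 0.14). These values are too weak to read more from. Fbn1, which encodes the fibrillin that ADAMTS10 binds, had 1393 CPM in the knockout and 1239 CPM in the wild type library, a log2 ratio of 0.17 (0.14 to 0.20).

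**Figure D4:**
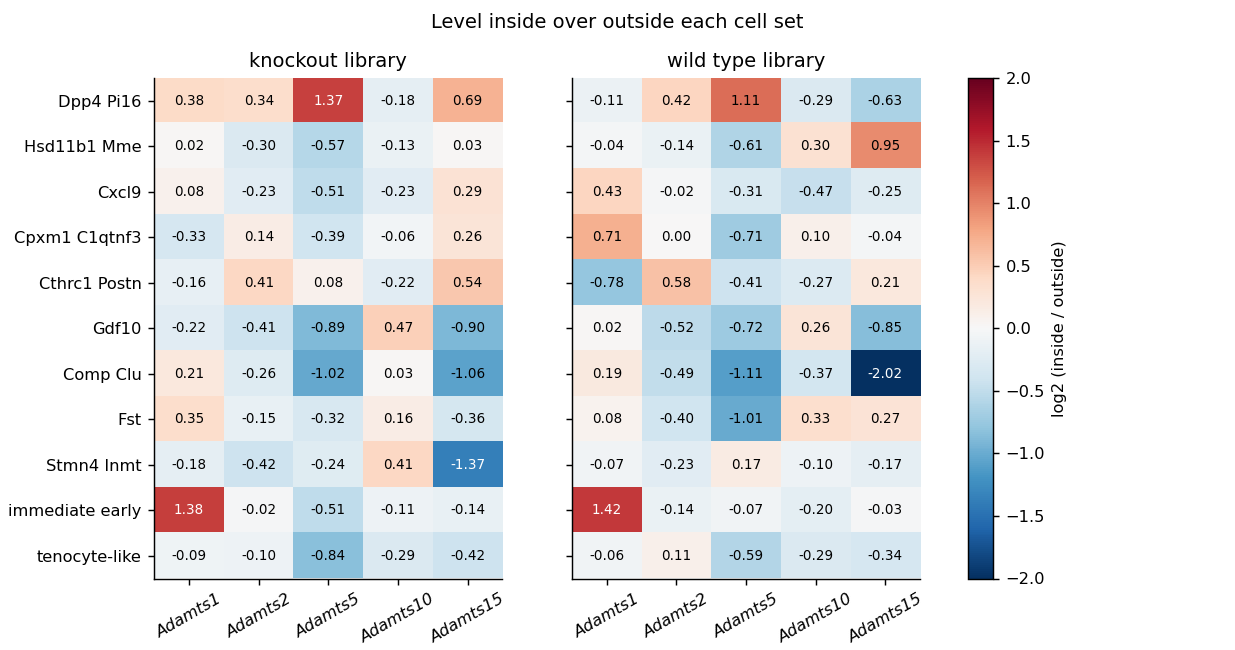
Log2 difference of each gene's level between the 20% of pooled cells with the highest sum of the named genes and the other cells of the same library (for the tenocyte genes, between all cells above 0 and the rest), with the knockout library on the left and the wild type library on the right. Adamts1 stands out in the immediate early set (1.38 and 1.42) and Adamts5 in the Dpp4 and Pi16 set (1.37 and 1.11).

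Across the cell sets Adamts2 kept one direction and Adamts1 and Adamts5 did not. Adamts2 was higher in the knockout library inside all 11 sets, by 0.22 to 0.70 on the log2 scale. Its lowest ratio was in cells with high Cthrc1 and Postn, markers of matrix-producing fibroblasts, where it had 364 CPM in the knockout and 313 CPM in the wild type library. Adamts1 was higher inside 7 sets and lower inside 4, from -0.81 in cells with high Cpxm1, C1qtnf3, Mmp3 and Sfrp1 to 0.71 in cells with high Cthrc1 and Postn. Adamts5 was likewise higher inside 7 and lower inside 4, from -0.28 in the immediate early set to 0.69 in the Fst set. These counts go by sign alone, and the sets share cells. Among the lower sets, the interval included 0 for Adamts1 in the Gdf10 (-0.37 to 0.09) and Stmn4 (-0.37 to 0.27) sets. For Adamts5 it did so in the Gdf10 (-0.24 to 0.02) and tenocyte (-0.20 to 0.09) sets. Among the higher sets it did so for Adamts1 in the Hsd11b1, Comp and tenocyte sets and for Adamts5 in the Cxcl9 set. The Cpxm1 set held 536 knockout and 58 wild type cells, and the Cthrc1 set 505 and 89, so their wild type values rest on few cells.

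The other ADAMTS proteases were mostly scarce. Of 14 further genes of the family only Adamts12 and Adamts4 reached a mean of 20 CPM, and both were past 1.5-fold, on the higher side in the knockout cells. Over all 5933 genes at this filter, 5.07% were higher and 3.59% lower by 1.5-fold or more. Adamts12, which cleaves the cartilage protein COMP, had 118 CPM in the knockout and 69.1 CPM in the wild type library, with a log2 ratio of 0.78 (0.67 to 0.88). The aggrecanase gene Adamts4 had 25.8 CPM in the knockout and 16.8 CPM in the wild type library (0.62, 0.40 to 0.85), and reached the filter only through its knockout level. No UMI of Adamts13 or Adamts18 was found, a count of 0 that allows up to 0.156 CPM in the knockout and 0.208 CPM in the wild type cells. The ADAMTS-like genes, whose products share the thrombospondin repeats but have no protease domain, were mostly lower. Of 5 measured among the 7 found in the feature table, 3 were at least 1.5-fold lower in the knockout library and none higher. Their median log2 ratio was -0.62, beside 0.05 over all genes. Adamtsl2 had 22.7 CPM in the knockout and 41.5 CPM in the wild type library (-0.87, -1.05 to -0.69), Adamtsl4 26.6 and 42.4 CPM (-0.68), and Adamtsl5 22.7 and 35.0 CPM (-0.62). Adamtsl1, the most abundant of them, had 139 CPM in the knockout and 136 CPM in the wild type library, and Adamtsl3 46.6 and 61.1 CPM (-0.39).

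Several substrates were higher in the knockout library. The counts below stand beside 5.07% of all 5933 genes higher by 1.5-fold or more and 3.59% lower. The lists were chosen with earlier results of these data known. Of 3 measured among 11 genes of the versican and hyaluronan group 1 was at least 1.5-fold higher, the hyaluronan receptor Cd44 with 97.8 CPM in the knockout and 56.4 CPM in the wild type library (0.79, 0.67 to 0.91). Versican, Vcan, had 408 CPM in the knockout and 283 CPM in the wild type library (0.53, 0.47 to 0.58), and the other large proteoglycans, Acan, Bcan and Ncan, had at most 1 UMI in either library. Of 9 measured among 11 other reported substrates 3 were past 1.5-fold, all on the higher side, and the median was 0.42. These were the nidogen gene Nid2 (0.97), fibronectin, Fn1 (0.94), and thrombospondin 1, Thbs1 (0.69). The small proteoglycan genes Dcn and Bgn, the most abundant of that list, had ratios of -0.45 and 0.42. Of 8 measured among 10 procollagen processing genes 4 were at least 1.5-fold higher, Col3a1, Col1a1, Col1a2 and Col5a2 (0.77), and 1 lower, the C-proteinase enhancer Pcolce2 with 263 CPM in the knockout and 466 CPM in the wild type library (-0.83, -0.88 to -0.77). Their median was 0.66.

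Microfibril genes and regulators of the proteases were divided. Again 5.07% of all 5933 genes were higher by 1.5-fold or more and 3.59% lower. Of 8 measured among 10 microfibril genes 2 were higher by 1.5-fold or more in the knockout cells, Mfap2 (0.90) and Emilin1 (0.86), and 1 lower, the latent TGF-beta binding protein Ltbp4 (-0.62), with a median of 0.13. The most abundant of them, Mfap5, had 1620 CPM in the knockout and 1664 CPM in the wild type library. Of 7 measured among 11 inhibitor, activator and clearance genes 1 was past 1.5-fold, the metalloproteinase inhibitor Timp1 with 382 CPM in the knockout and 78.0 CPM in the wild type library (2.29, 2.20 to 2.38). Timp3, the inhibitor held to be most active on ADAMTS enzymes, was lower without reaching 1.5-fold, with 457 CPM in the knockout and 680 CPM in the wild type library (-0.57, -0.62 to -0.53). Timp2, the most abundant of the list, had 1148 CPM in the knockout and 1378 CPM in the wild type library (-0.26, -0.29 to -0.24). Lrp1, the endocytic receptor that clears ADAMTS5, had 730 CPM in the knockout and 725 CPM in the wild type library, and the convertase Pcsk6 had a ratio of -0.40. The median of this list was -0.14.

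**Figure D5:**
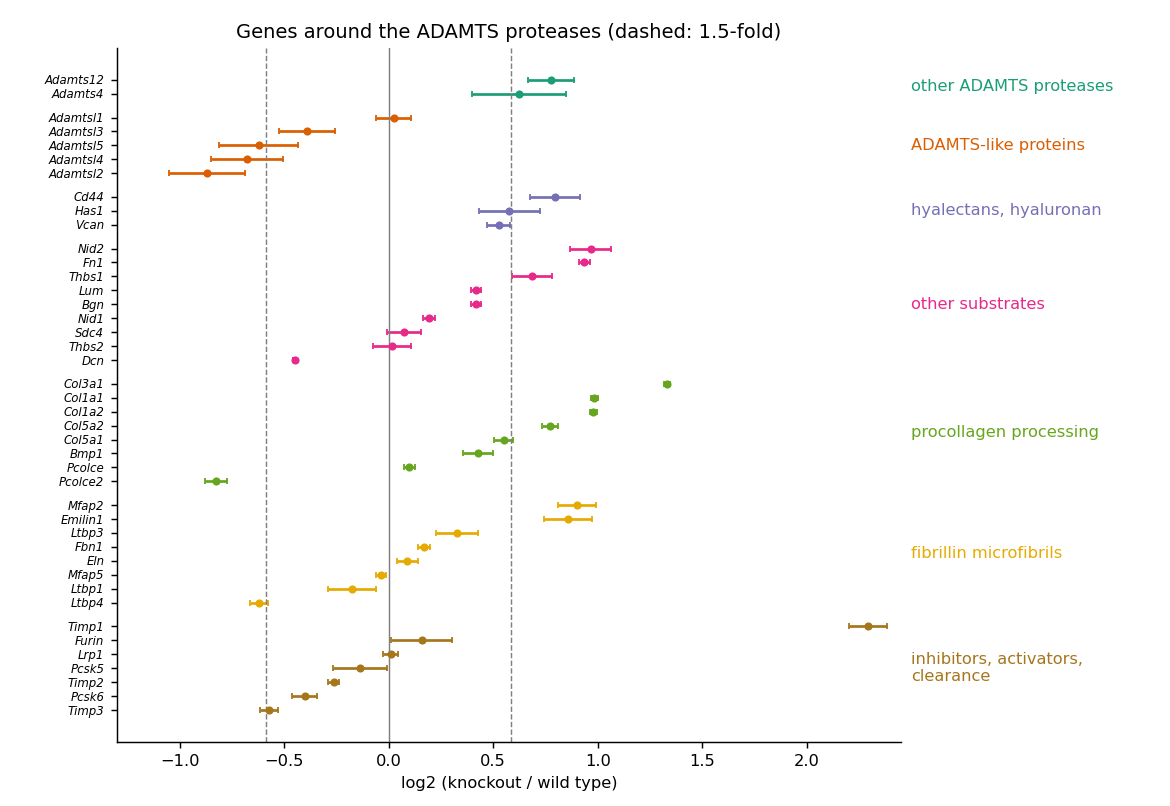
Log2 ratio of knockout over wild type with its exact 95% interval for each gene of the 7 lists around the ADAMTS proteases that had a mean of at least 20 CPM, grouped by list, with dashed lines at 1.5-fold. Timp1 is farthest to the right at 2.29, and the ADAMTS-like genes lie at or below 0.02.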

How the data were processed

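The deposited matrices hold raw UMI counts per gene and barcode. The submitters' processing notes list Cell Ranger 3.0.0, Seurat and the mm10 genome without saying which step each served, while the matrices were written by software version 3.0.2, per the file headers. How empty droplets were set aside is not stated in these sources. Doublets were gated out in the sort, per the labels' protocols, and no caller was run here. CPM is a gene's UMIs, added up over a library's cells, per 1000000 of all UMIs in those cells. Ratios have exact conditional binomial intervals, sums exact Poisson intervals and shares exact Clopper-Pearson intervals, all at 95%. Python 3.11.15, numpy 2.4.6 and scipy 1.17.1 were used. Ratios and correlations were tested on simulated data, and thinning on part of the knockout matrix. With 1 library per group no p-value was computed, a 1.5-fold difference was the size criterion, and a count of 0 was taken to allow 3 counts. Cell sets were the 20% of pooled cells with the highest summed counts per 10000 of a short gene list. In 10 sets the number of cells within 10% of the limit was 48 to 162, and the tenocyte set (Tnmd, Fmod and Scx) was every cell above 0. Correlations used counts thinned to 5000 UMIs per cell, and the genes named are the 3 of highest mean r over both libraries among genes found in at least 10% of the thinned cells of each. Pathway genes named are those at least 1.5-fold apart and the 2 most abundant of each list, with Timp3 added after its values were seen. Quintiles were added after seeing the data. The members, gene lists and cell sets were chosen with earlier results of these data known. Positions are from GENCODE M21, in which no gene overlaps a member on the same strand.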

Additional observations from a re-analysis of the deposited data

How the results depend on the processing

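No paired analysis was possible because each group is 1 pooled matrix with no map from cells to the numbered samples, and for the same reason no replicate could be left out. Under 9 other cell filters and scalings the log2 ratio between knockout and wild type ran from 1.19 to 1.31 for Adamts15, 0.46 to 0.60 for Adamts2, 0.069 to 0.22 for Adamts5, 0.03 to 0.14 for Adamts1 and 0.02 to 0.09 for Adamts10, and no direction turned. The interval of Adamts1, which includes 0, lay above 0 without cells holding markers of other types (0.14) and with no filter on genes or mitochondrial UMIs (0.10, 0.02 to 0.19). With each cell weighted alike Adamts2 stood at 0.60, past 1.5-fold, and Adamts5 at 0.22. Adamts5 was 0.17 without cells holding markers of other types, 0.069 with median-of-ratios scaling and 0.072 with a total free of mitochondrial and ribosomal protein genes. The cause was not tested. With a filter of 5 CPM the genes at least 1.5-fold higher numbered 634 and those lower 425, in place of 301 and 213, and with no filter 2331 and 1887, since more sparse genes enter. Fewer UMIs per cell give smaller shares by construction. At 3000 UMIs the shares in the knockout and wild type libraries were 27.3% and 27.0% for Adamts1, 58.3% and 42.6% for Adamts2, 68.4% and 64.7% for Adamts5, 11.9% and 10.6% for Adamts10, and 9.30% and 4.65% for Adamts15. Unthinned they were 56.8% and 48.3%, 86.6% and 69.8%, 88.9% and 81.5%, 34.9% and 25.9%, and 27.7% and 10.1% in the same order of genes. Without thinning the correlation of Adamts2 and Adamts5 in the wild type library was 0.22, and that of Adamts2 and Adamts15 was 0.10 in the knockout and 0.058 in the wild type library, and 2 of the 3 genes most like Adamts1, Adamts5, Adamts10 and Adamts15 were shared with the thinned ranking. Of 110 member ratios taken inside or outside a cell set, 55 lay beyond the interval of the ratio over all cells. So did 19 of 20 within quintiles, where Adamts2 was below 0 in 3 of 5.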

Other observations

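Among the 12 further proteases of the family below the 20 CPM filter, Adamts17 and Adamts7 had the largest ratios between the libraries. Both were picked after their values were seen. With no filter on level, 2331 of 15730 genes passed 1.5-fold toward the knockout side and 1887 toward the wild type side. Adamts17, whose loss in people causes a disorder like that of ADAMTS10, had 61 UMIs in the knockout library (3.18 CPM) and 4 in the wild type library (0.277 CPM), a log2 ratio of 3.52 (2.09 to 5.44). Adamts7 had 74 UMIs (3.86 CPM) in the knockout library and 18 (1.25 CPM) in the wild type library, a log2 ratio of 1.63 (0.87 to 2.46). The other procollagen proteases of the type of ADAMTS2 were scarce and differed by less than counting error, with Adamts3 at 3.18 CPM in the knockout and 3.12 CPM in the wild type library and Adamts14 at 5.58 and 5.20 CPM. Adamts9, another versican-cleaving member, had 6.94 CPM in the knockout and 9.64 CPM in the wild type library, a log2 ratio of -0.47 (-0.83 to -0.12).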
